A study of Homo sapiens with 12 samples.

Results

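The genes described here were 10 cytosolic heat shock proteins and co-chaperones, taken by name from a table of 65975 genes: HSPA8, HSPH1, HSPA4, DNAJB1, HSP90AA1, HSP90AB1, HSPB1, HSPB8, CRYAB and BAG3. All 10 were found in the table, and all 10 passed the filter on low values in every comparison, an average of 1 FPKM or more. FPKM counts fragments relative to gene length and to the reads mapped in a library, so levels can be compared between genes on this scale. RNA-seq was run on rhabdomyosarcoma (RMS) cell lines to ask which genes respond to depletion of KDM3A, a histone demethylase that removes methyl groups from lysine 9 of histone H3. The 4 groups of 3 libraries each were RD cells with control shRNA (RD Scramble), RD cells with shRNA against KDM3A (RD KDM3A-sh2), Rh30 cells with control shRNA (Rh30 Scramble) and Rh30 cells with shRNA against KDM3A (Rh30 KDM3A-sh2). RD is a fusion-negative line (FN-RMS) and Rh30 a fusion-positive line (FP-RMS), and the shRNA came in a lentivirus with puromycin selection at 1 ug/ml in all 4 groups. No group was heat shocked or otherwise stressed on purpose as far as the labels and methods say. Each RMS subtype was represented by 1 line and the knockdown by 1 shRNA in these libraries, and RD and Rh30 were grown in different media. Whether separate cultures gave the 3 libraries of a group is not stated. The labels of the Rh30 Scramble libraries all end in 1, while those of each other group end in 1 to 3, and what this ending stands for is not stated. The p-values thus measure only the spread between these libraries, which may be technical.

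Heat shock proteins are chaperones that bind unfolded or partly folded proteins and help them to fold, assemble or be degraded. HSP70 chaperones work in cycles of ATP hydrolysis that are started by HSP40 proteins and reset by nucleotide exchange factors such as the HSP110 proteins and the BAG proteins, and many of their clients pass on to HSP90. The small heat shock proteins need no ATP and hold unfolding proteins in a soluble state, and HSPB8 with BAG3 and HSP70 sends damaged muscle proteins such as filamin to autophagy. Under stress, heat shock factor 1 (HSF1) binds heat shock elements, repeats of the unit NGAAN in alternating orientation, and switches on many of these genes.

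The upstream sequences are shown because heat shock elements are the feature that genes of this response are known to share. The RefSeq table of promoters (GRCh38.p14) held windows for 9 of the 10 genes, with CRYAB the gene without an entry. The 250 bases before each start were searched on both strands for GAANNTTC and TTCNNGAA, which hold a pair of units, and for GAANNTTCNNGAA and TTCNNGAANNTTC, which hold 3 units and contain the shorter forms. The 9 genes had 14 windows, since some have more than 1 start. A form with a pair of units was present in 6 of the 14 windows, 1 for each of 6 genes, and in 11.6% of all 35116 windows. A form with 3 units was present in 3 of the 14 windows (of HSPA8, HSP90AA1 and HSP90AB1) and in 0.441% of all windows. Each stretch of 30 bases around the matches is given 5′ to 3′ on the strand of the gene, with matches in capitals.
HSPA8, distal (chr11:123062345-123062374, minus strand): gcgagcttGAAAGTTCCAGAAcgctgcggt
HSPA8, proximal (chr11:123062170-123062199, minus strand): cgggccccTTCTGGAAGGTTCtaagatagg
HSP90AA1 (chr14:102087104-102087133, minus strand): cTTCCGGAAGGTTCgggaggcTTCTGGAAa
HSP90AB1, distal (chr6:44247770-44247799, plus strand): ggagcaggTTCTGGAAGATTCatgggctcc
HSP90AB1, proximal (chr6:44247823-44247852, plus strand): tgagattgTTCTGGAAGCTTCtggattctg
DNAJB1, distal (chr19:14518456-14518485, minus strand): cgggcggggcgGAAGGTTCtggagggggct
DNAJB1, proximal (chr19:14518426-14518455, minus strand): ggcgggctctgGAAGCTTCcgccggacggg
HSPB1 (chr7:76302480-76302509, plus strand): ccttaacgagaGAAGGTTCcagatgagggc
HSPB8 (chr12:119178832-119178861, plus strand): tcatcacctccGAATATTCctgtgacagga

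In the GENCODE 29 annotation, the HSPA8, HSP90AA1 and HSPB8 stretches overlapped a non-coding part of an exon of some transcript of the same gene. The HSP90AB1 and DNAJB1 stretches lay in introns of longer transcripts of the same gene, the DNAJB1 stretches also within TECR, and the HSPB1 stretch lay upstream of the gene. The windows of HSPH1, HSPA4 and BAG3 held no exact match to the forms searched for. Elements that depart from these letters, or that lie outside the windows, were not searched for. The search therefore cannot show whether these genes lack heat shock elements. No binding was measured in these libraries, so a match is a description of the sequence only.

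KDM3A itself, the target of the shRNA, was at 33.5 ± 2.50 FPKM (SD, n = 3) in RD Scramble and 12.2 ± 1.09 in RD KDM3A-sh2, and at 29.7 ± 2.14 in Rh30 Scramble and 14.1 ± 1.15 in Rh30 KDM3A-sh2. It fell in both lines (log2 fold change -1.39, limma adjusted p = 5.00e-05 in RD, and -1.02, adjusted p = 0.000348 in Rh30), as the labels would have it. Summed FPKM per library ran from 1198300 to 1379197, and 17473 to 17983 genes were at 1 FPKM or above. FPKM hide the number of reads, but the spacing of the lowest values gave a depth relative to the median library of 1.04 to 1.19 in RD Scramble, 0.861 to 0.993 in RD KDM3A-sh2, 1.00 to 1.02 in Rh30 Scramble and 0.943 to 0.996 in Rh30 KDM3A-sh2. Depth was thus lower with KDM3A-sh2 in both lines, and its part in the results was not tested. Of the myogenic markers MYOD1, MYOG, DES, CDH15 and CHRNA1, which fit cells of muscle lineage, group means ran from 47.3 to 1436 FPKM, whereas MYF5 was at or near 0. These markers moved with KDM3A-sh2 (limma). In RD 2 of the 5 rose (DES, CHRNA1) and 3 fell (MYOD1, MYOG, CDH15), and in Rh30 2 rose (MYOD1, MYOG) and 2 fell (CDH15, CHRNA1). Group means of MYOG were 691 and 1017 FPKM in Rh30 Scramble and Rh30 KDM3A-sh2, while CHRNA1 was at 456 and 292 FPKM there and at 1074 and 1436 FPKM in the RD groups. The summed FPKM of all 6 was 2123 to 2343 in RD Scramble, 2629 to 2751 in RD KDM3A-sh2, 2453 to 2724 in Rh30 Scramble and 2830 to 2861 in Rh30 KDM3A-sh2. It was higher with KDM3A-sh2 in both lines without overlap, and the part of these shifts in the results for muscle-related genes (HSPB8, HSPB7, CRYAB and FLNC) was not tested. Group means of the epithelial, endothelial and leukocyte markers CDH1, PECAM1, CDH5, PTPRC and CD3E were under 1 FPKM and those of EPCAM ran from 0.453 to 6.03 FPKM.

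The 10 genes spanned a wide range of levels. HSPA8, the constitutive HSP70 of the cytosol, was the highest of them in every group, at 2120 ± 21.2 FPKM (SD, n = 3) in RD Scramble and 1665 ± 28.9 FPKM in Rh30 Scramble. Its rank among all genes was 38 to 42 in the RD Scramble libraries and 107 to 111 in the Rh30 Scramble libraries. CRYAB, the small heat shock protein alpha-B crystallin, was the lowest of the 10 in every group, at 7.09 ± 0.136 FPKM in RD Scramble and 12.4 ± 1.10 FPKM in Rh30 Scramble. The order in RD Scramble, from high to low, was HSPA8, HSP90AB1, HSP90AA1, HSPB1, HSPA4, DNAJB1, HSPH1, BAG3, HSPB8 and CRYAB, and no neighbours in this order overlapped. RD KDM3A-sh2 had the same order, again with no overlap between neighbours. In Rh30 Scramble HSP90AA1 and HSP90AB1 overlapped, and HSPH1, DNAJB1 and HSPA4 followed HSPB1 with each overlapping its neighbour. In Rh30 KDM3A-sh2 the HSP90 pair overlapped and the other neighbours did not. As a share of summed FPKM, the 10 genes together made up 0.414% to 0.430% in RD Scramble, 0.375% to 0.378% in RD KDM3A-sh2, 0.371% to 0.378% in Rh30 Scramble and 0.360% to 0.361% in Rh30 KDM3A-sh2. HSPA8 and the HSP90 genes carry most of this sum, which was lower with KDM3A-sh2 in both lines without overlap.

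**Figure D1:**
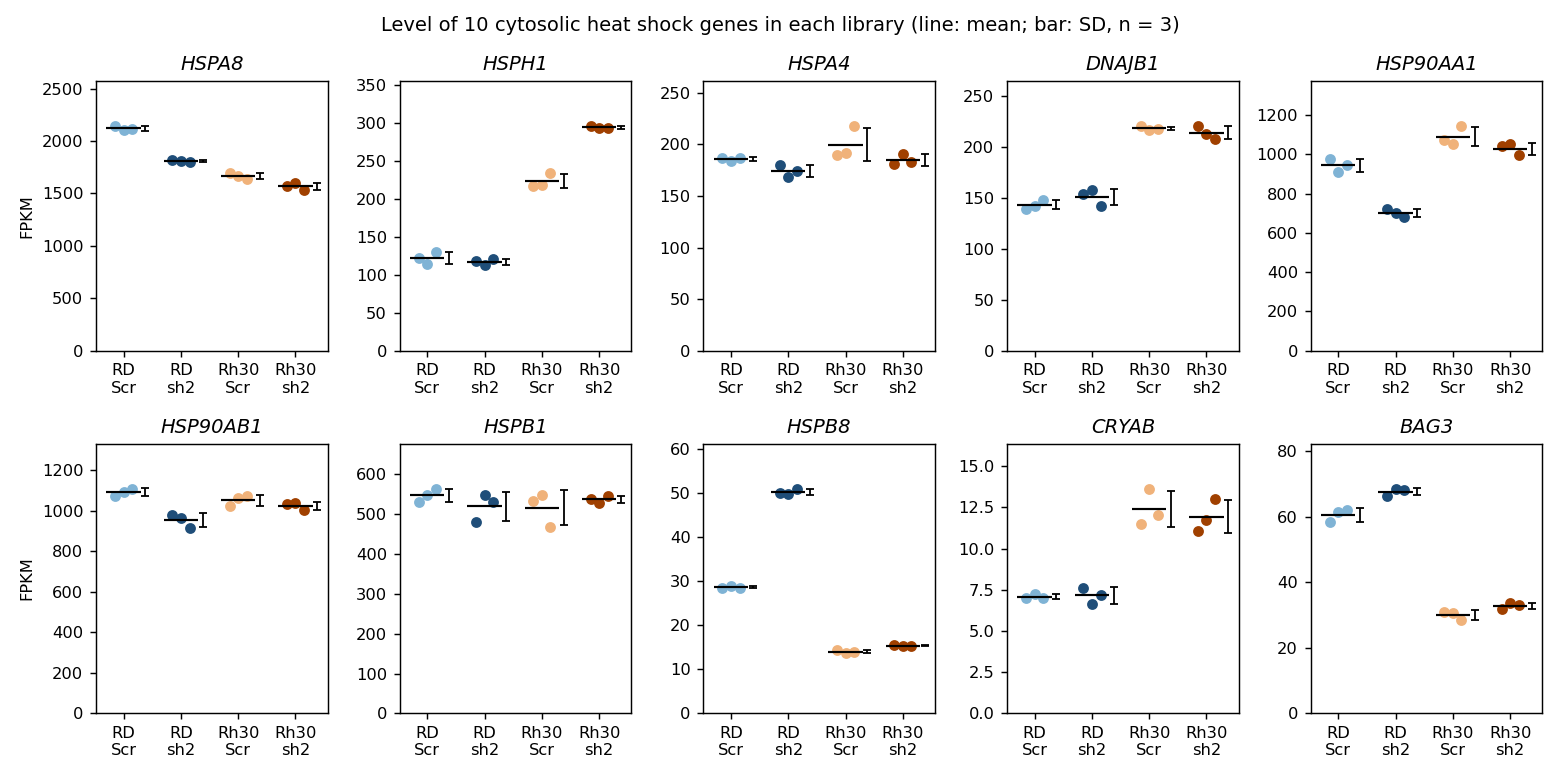
FPKM of each gene in each of the 12 libraries (points), with the mean (line) and SD (bar) of the 3 libraries of a group; axes are linear, start at 0 and differ between panels. HSPB8 stands at 28.6 ± 0.267 FPKM in RD Scramble and 50.2 ± 0.685 in RD KDM3A-sh2, and HSPH1 at 223 ± 9.29 in Rh30 Scramble and 295 ± 1.56 in Rh30 KDM3A-sh2.

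With KDM3A-sh2 in RD, HSPB8 and BAG3 were upregulated and HSPA8, HSP90AA1 and HSP90AB1 were downregulated, while in Rh30 HSPH1 was upregulated and no other gene of the 10 passed the test. The test was limma on log2(FPKM + 1) with Benjamini-Hochberg adjustment over all genes and a threshold of 0.05, and all log2 fold changes below are on this scale, which understates the change of low genes such as CRYAB. In RD 2 of the 10 genes were called upregulated, where 21.6% of all 17988 genes tested were, and 3 were called downregulated, where 19.5% were. The share of the 10 called in either direction was thus close to the 41.1% of all genes. In Rh30 1 of the 10 was called upregulated, where 15.3% of 17803 genes were, and 0 were called downregulated, where 13.2% were. Regardless of sign, the median change of the 10 on the log2 scale was 0.124 in RD and 0.0858 in Rh30, against 0.222 and 0.177 over all genes tested. The genes tested reach down to an average of 1 FPKM and were not matched to the 10 by level. The part of level in this gap was not tested. The signed median of the 10 was -0.07 in RD and -0.03 in Rh30, against 0.01 and 0.03 over all genes. In these bulk samples, fewer cells of a state and less RNA per cell cannot be told apart.

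**Figure D2:**
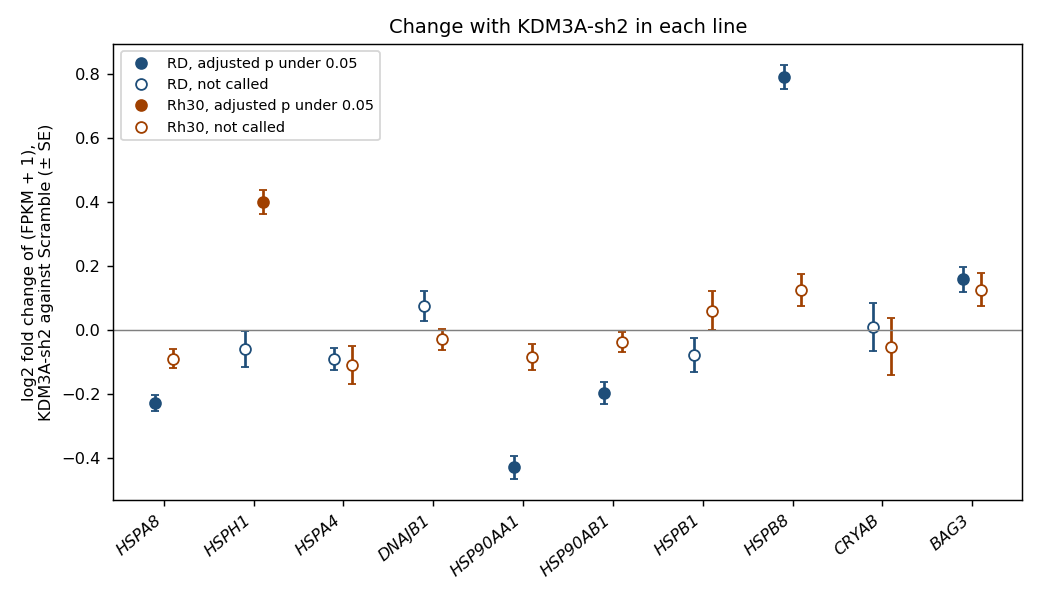
Log2 fold change of (FPKM + 1) of each gene with KDM3A-sh2 against Scramble, with its standard error (bar), in RD and Rh30; filled points have a limma adjusted p under 0.05. The RD points run from -0.43 (HSP90AA1) to 0.79 (HSPB8) and the Rh30 points from -0.11 (HSPA4) to 0.40 (HSPH1).

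HSPA8 (ENSG00000109971, chr11:123057489-123063230, minus strand, coordinates of this and the other genes from GENCODE 29 on GRCh38) folds newly made proteins and uncoats clathrin vesicles in unstressed cells. Its level was 2143, 2102 and 2114 FPKM in the RD Scramble libraries and 1817, 1811 and 1801 FPKM in the RD KDM3A-sh2 libraries. All libraries with KDM3A-sh2 were lower, and HSPA8 fell by 14.6% (log2 fold change -0.23, SE 0.0252, limma adjusted p = 0.000579). The Rh30 libraries were at 1694, 1666 and 1636 FPKM with Scramble and at 1571, 1596 and 1532 FPKM with KDM3A-sh2. The groups did not overlap, but the log2 fold change of -0.09 (SE 0.0294) did not pass the test (adjusted p = 0.0646). It passed when libraries were rescaled to the same sum (-0.11, limma adjusted p = 0.0154) or centred on their medians (-0.11, adjusted p = 0.0270).

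HSPH1 (ENSG00000120694, chr13:31134974-31162388, minus strand), the stress-inducible HSP110 that acts as a nucleotide exchange factor of HSP70, was the only gene of the 10 called in Rh30. Its level there was 218, 218 and 234 FPKM with Scramble and 296, 294 and 294 FPKM with KDM3A-sh2. Every library with KDM3A-sh2 was higher than every Scramble library, and the rise was 31.9% (log2 fold change 0.40, SE 0.0376, limma adjusted p = 0.000717). The RD libraries were at 122, 114 and 131 FPKM with Scramble and at 118, 112 and 121 FPKM with KDM3A-sh2. These groups overlapped, with a log2 fold change of -0.06 (SE 0.0572, adjusted p = 0.457).

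HSPA4 (ENSG00000170606, chr5:133051962-133106449, plus strand), the other HSP110 exchange factor and not strongly stress-inducible, was at 187, 183 and 187 FPKM in RD Scramble and at 180, 169 and 174 FPKM in RD KDM3A-sh2. The RD groups did not overlap, but the log2 fold change of -0.09 (SE 0.0346) had a limma adjusted p of 0.0771. In Rh30 the values were 190, 191 and 218 FPKM with Scramble and 181, 191 and 183 FPKM with KDM3A-sh2. They overlapped, and the Scramble libraries held 1 value well above the other 2 (log2 fold change -0.11, SE 0.0594, adjusted p = 0.218).

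DNAJB1 (ENSG00000132002, chr19:14514770-14529770, minus strand), the stress-inducible HSP40 that delivers clients to HSP70 and starts its ATP hydrolysis, was at 140, 142 and 148 FPKM in RD Scramble and at 153, 158 and 142 FPKM in RD KDM3A-sh2. Its Rh30 levels were 220, 216 and 218 FPKM with Scramble and 221, 213 and 208 FPKM with KDM3A-sh2. Both pairs of groups overlapped, with log2 fold changes of 0.08 in RD (SE 0.0479, limma adjusted p = 0.252) and -0.03 in Rh30 (SE 0.0334, adjusted p = 0.565).

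The cytosolic HSP90 proteins keep kinases, steroid receptors and other clients in a state that can be activated. HSP90AA1 (ENSG00000080824, chr14:102080738-102139699, minus strand) encodes the stress-inducible isoform and HSP90AB1 (ENSG00000096384, chr6:44246166-44253888, plus strand) the constitutive isoform. HSP90AA1 was at 974, 910 and 948 FPKM in RD Scramble and at 719, 702 and 683 FPKM in RD KDM3A-sh2. The RD groups stood well apart, and HSP90AA1 fell by 25.7%, the largest drop among the 10 genes in RD (log2 fold change -0.43, SE 0.0366, limma adjusted p = 0.000201). In Rh30 its values were 1070, 1054 and 1144 FPKM with Scramble and 1040, 1050 and 994 FPKM with KDM3A-sh2. The Rh30 groups did not overlap, but came within a few FPKM of each other (log2 fold change -0.08, SE 0.0414, adjusted p = 0.178).

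HSP90AB1 was at 1073, 1095 and 1110 FPKM in RD Scramble and at 981, 966 and 917 FPKM in RD KDM3A-sh2. All RD libraries with KDM3A-sh2 were lower, and HSP90AB1 fell by 12.6% (log2 fold change -0.19, SE 0.0347, limma adjusted p = 0.00445). Its Rh30 levels were 1022, 1062 and 1071 FPKM with Scramble and 1034, 1037 and 1004 FPKM with KDM3A-sh2. The Rh30 groups overlapped (log2 fold change -0.04, SE 0.0312, adjusted p = 0.413).

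The ratio of HSP90AA1 to HSP90AB1 within a library does not depend on how that library was scaled. It was 0.864 ± 0.0397 (SD, n = 3) in RD Scramble and 0.735 ± 0.00874 in RD KDM3A-sh2, a log2 difference of -0.23 (SE 0.0392) with no overlap. The exact, two-sided permutation test gave p = 0.1, the smallest that 3 against 3 libraries allow. In Rh30 the ratio was 1.04 ± 0.0391 with Scramble and 1.00 ± 0.0113 with KDM3A-sh2, and these groups overlapped (log2 difference -0.05, SE 0.0330, exact permutation p = 0.3). Between the Scramble groups the ratio was higher in Rh30 without overlap (log2 difference 0.26, SE 0.0494, exact permutation p = 0.1).

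**Figure D3:**
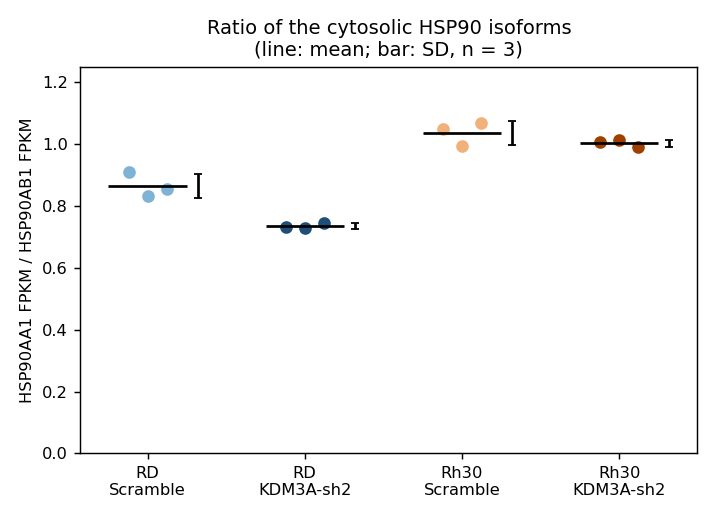
Ratio of HSP90AA1 to HSP90AB1 FPKM in each library (points), with the mean (line) and SD (bar) of each group of 3. The RD KDM3A-sh2 libraries lie between 0.727 and 0.744, below the RD Scramble libraries at 0.831 to 0.908, and both Rh30 groups lie around 1.

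Several of these genes have processed pseudogenes of nearly the same sequence, so reads may be split between copies and their levels are uncertain to that extent. HSP90AA2P averaged 104 FPKM over the 12 libraries, or 11.1% of HSP90AA1, and HSP90AB3P averaged 132 FPKM, or 12.8% of HSP90AB1. HSPB1P1 was at 9.40% of HSPB1, and the highest of 17 HSPA8 pseudogenes, HSPA8P8, at 1.09% of HSPA8. All named copies together came to 18.8% of HSPB1, 15.4% of HSP90AA1, 14.3% of HSP90AB1, 4.16% of HSPA8 and 1.76% of DNAJB1. HSP90AA2P fell in RD with a log2 fold change of -0.44 (limma adjusted p = 0.000563), and HSP90AB3P with -0.18 (adjusted p = 0.00698), values close to those of their parent genes. The other copies tested were not called in RD, where 19.5% of all genes tested were called lower. Among them were HSP90AB2P (-0.13, limma adjusted p = 0.289) and all 7 HSPA8 copies tested, although HSP90AB1 and HSPA8 were called there. In Rh30 HSP90AA2P fell by 0.15 on the log2 scale and passed the test (limma adjusted p = 0.0345), which HSP90AA1 did not. HSP90AB2P (-0.19, limma adjusted p = 0.0404) and HSPA8P7 (-0.38, adjusted p = 0.0376) were also called lower there, unlike HSP90AB1 and HSPA8. HSP90AB2P and HSPA8P7 averaged 12.5 and 2.67 FPKM over the 12 libraries. The other pseudogenes tested were not called in Rh30, where 13.2% of all genes tested were called lower. The copies tested were 7 of HSPA8, 3 each of HSP90AA1 and HSP90AB1, 2 of HSPB1 and 1 of DNAJB1. HSPH1, HSPA4, HSPB8, CRYAB and BAG3 have no such named copy in the table.

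HSPB8 (ENSG00000152137, chr12:119178642-119221131, plus strand), a small heat shock protein abundant in muscle and the partner of BAG3, had the largest change of the 10 genes in RD. It was at 28.4, 28.9 and 28.5 FPKM in RD Scramble and at 49.9, 49.7 and 51.0 FPKM in RD KDM3A-sh2. The gap between the groups was many times their spread, and the mean FPKM rose by 75.5% (log2 fold change 0.79, SE 0.0383, limma adjusted p = 2.47e-05). Its values in Rh30 were 14.3, 13.7 and 14.0 FPKM with Scramble and 15.5, 15.4 and 15.3 FPKM with KDM3A-sh2. All Rh30 libraries with KDM3A-sh2 were higher, but the log2 fold change of 0.13 (SE 0.0503) did not pass limma's test (adjusted p = 0.106). With no spread shared between genes it did, on the log2 scale (adjusted p = 0.0207) and on unlogged values (adjusted p = 0.0193).

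BAG3 (ENSG00000151929, chr10:119651370-119677819, plus strand), which links HSP70 to small heat shock proteins and releases its clients, moved in the same direction as HSPB8 in RD. Its level was 58.3, 61.4 and 62.1 FPKM in RD Scramble and 66.4, 68.6 and 68.1 FPKM in RD KDM3A-sh2. The groups did not overlap, and the mean FPKM of BAG3 rose by 11.8% (log2 fold change 0.16, SE 0.0401, limma adjusted p = 0.0185). That call was lost without RD KDM3A-sh2 replicate 2 (log2 fold change 0.15, limma adjusted p = 0.0614) or replicate 3 (0.15, adjusted p = 0.0510). Its Rh30 levels were 31.0, 30.7 and 28.5 FPKM with Scramble and 31.8, 33.7 and 33.1 FPKM with KDM3A-sh2. These groups did not overlap either, but the log2 fold change of 0.13 (SE 0.0518) had an adjusted p of 0.114.

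HSPB1 (ENSG00000106211, chr7:76302544-76304295, plus strand), also known as HSP27, is a small heat shock protein that also stabilises actin filaments. Its values were 531, 547 and 564 FPKM in RD Scramble and 480, 549 and 530 FPKM in RD KDM3A-sh2. In Rh30 they were 533, 549 and 467 FPKM with Scramble and 537, 529 and 547 FPKM with KDM3A-sh2. The groups overlapped in both lines, with log2 fold changes of -0.08 in RD (SE 0.0541, limma adjusted p = 0.298) and 0.06 in Rh30 (SE 0.0611, adjusted p = 0.495).

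CRYAB (ENSG00000109846, chr11:111908565-111923722, minus strand) protects desmin and other filaments in muscle. It was at 7.03, 7.25 and 7.00 FPKM in RD Scramble and at 7.64, 6.64 and 7.20 FPKM in RD KDM3A-sh2. The Rh30 values were 11.5, 13.6 and 12.1 FPKM with Scramble and 11.0, 11.8 and 13.0 FPKM with KDM3A-sh2. The groups overlapped in both lines, with log2 fold changes of 0.01 in RD (SE 0.0759, limma adjusted p = 0.929) and -0.05 in Rh30 (SE 0.0881, adjusted p = 0.700).

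By overlap alone, 2 of the 10 genes were higher and 4 lower with KDM3A-sh2 in RD with no overlap between groups, where 28.1% and 25.3% of all genes were (53.4% together). In Rh30 3 were higher and 2 lower without overlap, where 25.6% and 20.2% of all genes were (45.8% together). HSPA8 and HSP90AA1 were lower, and HSPB8 and BAG3 higher, without overlap in both lines. None of these genes was called in Rh30 by the main test. The share of all genes without overlap in the same direction in both lines was not computed, so no baseline stands beside this.

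The effect of KDM3A-sh2 differed between the lines for 5 of the 10 genes. It was tested as an interaction by limma with all 12 libraries, as the Rh30 value minus the RD value on the log2 scale, and 27.8% of 18517 genes passed (14.4% higher and 13.4% lower in Rh30), against 4 higher and 1 lower of the 10. HSPB8 had the largest difference, -0.66 (SE 0.0506, limma adjusted p = 7.08e-06), with a rise in RD and a smaller, uncalled value in Rh30. HSPH1 followed with 0.46 (SE 0.0704, adjusted p = 0.000790), the only gene of the 10 called in Rh30 and not in RD. HSP90AA1 differed by 0.34 (SE 0.0557, adjusted p = 0.00106), with the larger drop in RD.

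HSP90AB1 and HSPA8 differed by less, at 0.16 (SE 0.0447, limma adjusted p = 0.0233) and 0.14 (SE 0.0337, adjusted p = 0.0107), each with the larger drop in RD. When libraries were rescaled to the same sum, these values were 0.10 (limma adjusted p = 0.0704) and 0.08 (adjusted p = 0.0930) and both calls were lost, and the split of all called genes moved from 2665 higher and 2486 lower to 2061 and 3015. The HSP90AB1 call was also lost with median centring (0.14, adjusted p = 0.0748) and without RD Scramble replicate 3, Rh30 Scramble replicate 1, Rh30 KDM3A-sh2 replicate 1 or Rh30 KDM3A-sh2 replicate 2, with limma adjusted p from 0.0527 to 0.0568. For BAG3 the difference was -0.03 (SE 0.0611, limma adjusted p = 0.739). The differences of HSPA4, DNAJB1, HSPB1 and CRYAB ran from -0.10 to 0.14 and none passed the test, though DNAJB1 did after rescaling (-0.16, limma adjusted p = 0.0418).

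Without knockdown, the lines differed in most of the 10 genes. Compared with RD Scramble, Rh30 Scramble had higher HSPH1, CRYAB, DNAJB1 and HSP90AA1 and lower BAG3, HSPB8 and HSPA8, which made 4 genes higher, where 35.0% of all 18357 genes tested were, and 3 lower, where 39.6% were. The share called was close to the 74.5% of all genes. By overlap, 5 were higher and 4 lower in Rh30 with no overlap between the lines, where 36.4% and 41.1% of all genes were (77.5% together). These tests use the same Scramble libraries as the comparisons above. HSPH1 was higher by 0.87 on the log2 scale (SE 0.0586, limma adjusted p = 1.03e-05), and DNAJB1 by 0.60 (SE 0.0355, adjusted p = 4.95e-06). CRYAB was higher by 0.73 (SE 0.0786, adjusted p = 0.000123) and HSP90AA1 by 0.21 (SE 0.0427, adjusted p = 0.00361).

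BAG3 and HSPB8, which act together, were both lower in Rh30 Scramble, with log2 differences of -0.99 (SE 0.0521, limma adjusted p = 2.85e-06) and -0.98 (SE 0.0486, adjusted p = 2.12e-06). HSPA8 was lower by -0.35 on the same scale (SE 0.0262, limma adjusted p = 1.78e-05). HSPA4, HSP90AB1 and HSPB1 did not pass the test, with log2 differences of 0.10, -0.05 and -0.09. Rescaling to the same sum moved the median of all genes in this comparison from -0.04 to -0.14, so values near 0 depend on the scaling. Under it HSP90AA1 was no longer called (0.10, limma adjusted p = 0.116), while HSP90AB1 (-0.17, adjusted p = 0.00146) and HSPB1 (-0.20, adjusted p = 0.0196) were called lower. HSPH1, CRYAB, DNAJB1, HSPA8, HSPB8 and BAG3 kept their calls.

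A further 80 genes were taken from 9 lists of chaperones, their regulators and their partners. Of these genes 70 passed the filter in RD, where 11 were upregulated and 29 downregulated, and 69 passed it in Rh30, where 9 were upregulated and 18 downregulated. Over all genes tested, 21.6% were upregulated and 19.5% downregulated in RD, and 15.3% and 13.2% in Rh30, and the list counts below are to be read against these shares. Their median log2 fold change was -0.08 in RD and -0.01 in Rh30, against 0.01 and 0.03 over all genes tested. Of the 8 subunits of TRiC, the ring-shaped chaperonin that folds actin and tubulin, 7 fell and 0 rose in RD (median -0.30), and 4 fell and 1 rose in Rh30 (median -0.12). CCT5 fell in both lines, with log2 fold changes of -0.33 in RD (limma adjusted p = 0.000432) and -0.18 in Rh30 (adjusted p = 0.00803). CCT2 also fell in both, with -0.36 in RD (adjusted p = 0.000518) against -0.22 in Rh30 (adjusted p = 0.0467), a call in Rh30 that was lost in 9 of 14 alternatives (adjusted p up to 0.134). These were the fits without Scramble replicate 1 or 3 or KDM3A-sh2 replicate 1, 2 or 3, with no filter, with the replicate block and with no shared spread on either scale. CCT6A fell by 0.36 in RD (limma adjusted p = 0.00326) and was at -0.10 in Rh30 (adjusted p = 0.125, but called without Scramble replicate 2).

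Of 15 co-chaperones of HSP90, 7 fell and 0 rose in RD (median -0.11), and of the 13 tested in Rh30 3 fell and 1 rose (median 0.01, or -0.01 and -0.02 after rescaling and median centring). The same 3 named genes fell in both lines. STIP1, which hands clients from HSP70 to HSP90, was at 316 ± 7.91 and 234 ± 10.1 FPKM (SD, n = 3) in the RD groups and at 337 ± 7.47 and 285 ± 4.41 FPKM in the Rh30 groups, with log2 fold changes of -0.43 (limma adjusted p = 0.000296) and -0.24 (adjusted p = 0.00253). FKBP4, an immunophilin of steroid receptor complexes, had -0.53 in RD (limma adjusted p = 0.000289) and -0.27 in Rh30 (adjusted p = 0.00367). CHORDC1 had -0.38 in RD (limma adjusted p = 0.000510) and -0.44 in Rh30 (adjusted p = 0.00509).

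In the list of other HSP70 genes, 2 of 5 tested fell in RD, while 1 of 6 rose and 1 fell in Rh30. HSPA1B, an inducible HSP70, was at 20.8 ± 1.23 FPKM in RD Scramble and 16.0 ± 0.713 in RD KDM3A-sh2, and at 25.6 ± 1.41 in Rh30 Scramble and 31.1 ± 0.528 in Rh30 KDM3A-sh2. It fell in RD (log2 fold change -0.36, limma adjusted p = 0.00458) and rose in Rh30 (0.27, adjusted p = 0.0117). HSPA1A, whose sequence is nearly identical, had group means of 0.975 to 3.53 FPKM and passed no test with KDM3A-sh2 (limma adjusted p = 0.302 in RD and 0.444 in Rh30), so how reads fell between these copies leaves both uncertain. HSPA14, an HSP70 bound to the ribosome, fell in both lines (-0.49 in RD, limma adjusted p = 0.000269, and -0.28 in Rh30, adjusted p = 0.00636).

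Of 13 genes tested in the list of other HSP40 genes, 3 rose and 5 fell in RD (21.6% and 19.5% of all genes), and 1 rose and 4 fell in Rh30 (15.3% and 13.2% of all genes). DNAJB5 had log2 fold changes of -0.60 in RD (limma adjusted p = 0.000594) and -0.82 in Rh30 (adjusted p = 0.000196). DNAJB2 rose in both lines (0.35 in RD, limma adjusted p = 0.000839, and 0.27 in Rh30, adjusted p = 0.0231), with the Rh30 call lost in 5 of 14 alternatives (without KDM3A-sh2 replicate 1 or 2, with no filter and with no shared spread on either scale, adjusted p up to 0.0738), and DNAJB4 rose by 0.63 in RD (adjusted p = 0.000489) and was at 0.01 in Rh30. Of 4 genes tested in the list of other small heat shock proteins, which was drawn up by symbol, 1 rose and 2 fell in each line. HSPB7, a small heat shock protein of heart and skeletal muscle, rose in Rh30 from 72.0 ± 7.75 to 131 ± 10.1 FPKM (log2 fold change 0.85, limma adjusted p = 0.000964) and stayed near 4 FPKM in RD. HSPB11 fell by 0.37 in RD (limma adjusted p = 0.00169) and was at -0.09 in Rh30 (adjusted p = 0.344).

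Of the 8 other regulators of HSP70, 2 fell and 0 rose in each line. BAG5 fell in both lines (-0.34 in RD, limma adjusted p = 0.00207, and -0.32 in Rh30, adjusted p = 0.00363). ST13 fell by 0.20 in RD (adjusted p = 0.00953) and was at 0.06 in Rh30 (adjusted p = 0.328). BAG1 fell by 0.20 in Rh30 (adjusted p = 0.0268). In RD BAG1 was at -0.13 without overlap (limma adjusted p = 0.0603), called in 3 of 14 alternatives, and its difference between the lines did not pass (-0.07, adjusted p = 0.482). The BAG1 call in Rh30 was lost in 8 of 14 alternatives (without Rh30 Scramble replicate 1, 2 or 3 or KDM3A-sh2 replicate 1, with no filter, with the replicate block and with no shared spread on either scale, adjusted p up to 0.0700). Among 4 genes of the heat shock factor list tested, 3 rose in RD (HSF1, HSF4 and HSBP1) and 1 in Rh30 (HSF4), and 0 fell in either line. HSF4 was at 7.88 ± 0.318 and 11.5 ± 2.37 FPKM (SD, n = 3) in the RD groups. In the Rh30 groups it was at 4.20 ± 1.10 and 9.75 ± 3.30 FPKM. Its log2 fold changes were 0.47 in RD (limma adjusted p = 0.0341) and 1.02 in Rh30 (adjusted p = 0.0228). HSF1, the main activator of the heat shock response, rose by 0.13 in RD, from 90.7 ± 0.780 to 99.4 ± 1.60 FPKM (limma adjusted p = 0.0166, a call lost with the replicate block and without RD Scramble replicate 2, adjusted p up to 0.0574), and was at 0.14 in Rh30 (adjusted p = 0.166). HSF2 passed no test (log2 fold change -0.02 in RD and 0.13 in Rh30), and HSBP1, a small protein that binds HSF1 and restrains it, rose by 0.28 in RD (adjusted p = 0.000432) and was at 0.04 in Rh30.

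Of 6 partners of HSPB8 and BAG3 in chaperone-assisted autophagy, 2 rose and 1 fell in RD, and 1 rose and 2 fell in Rh30. SQSTM1, the autophagy receptor p62, rose in both lines (log2 fold change 0.29 in RD, limma adjusted p = 0.00291, and 0.24 in Rh30, adjusted p = 0.0253), with the Rh30 call lost in 7 of 14 alternatives (without Scramble replicate 1 or any KDM3A-sh2 replicate, with no filter and with no shared spread on either scale, adjusted p up to 0.0825). FLNC, the muscle filamin that this route degrades, fell in both (-0.25 in RD, limma adjusted p = 0.00165, and -0.86 in Rh30, adjusted p = 0.000317). FLNA, the filamin found in most tissues, fell by 0.27 in Rh30 (adjusted p = 0.00625) and was at -0.03 in RD (adjusted p = 0.696). Of 8 mitochondrial chaperones, which serve as a contrast to the cytosolic genes, 2 rose and 3 fell in RD, and 2 rose and 0 fell in Rh30. HSPD1, the mitochondrial HSP60, fell by 0.33 in RD (limma adjusted p = 0.000300) and rose by 0.19 in Rh30 (adjusted p = 0.00614). TRAP1, the mitochondrial HSP90, fell by 0.20 in RD (adjusted p = 0.0216) and was at -0.11 in Rh30 (adjusted p = 0.174). Its RD call was lost in 4 of 14 alternatives (without RD Scramble replicate 1 or 2 and with no shared spread on either scale, adjusted p up to 0.0710). GRPEL2 rose by 0.31 in RD (limma adjusted p = 0.00954) and was at 0.23 in Rh30 without overlap (adjusted p = 0.0606).

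**Figure D4:**
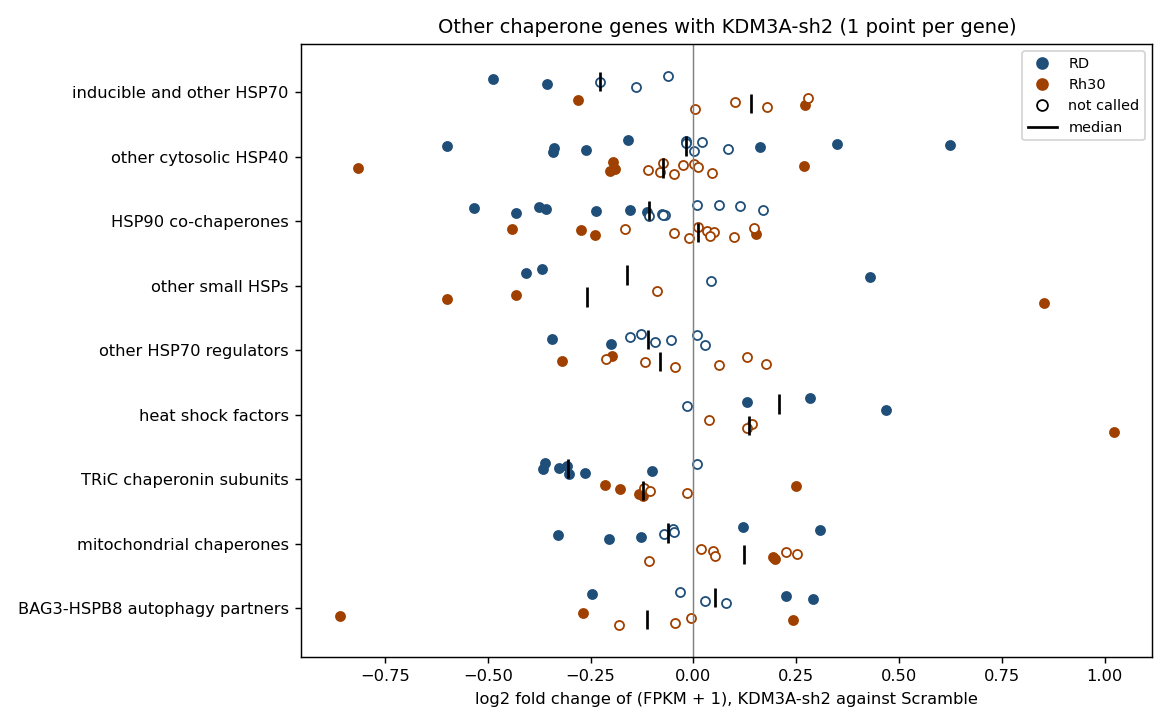
Log2 fold change of (FPKM + 1) with KDM3A-sh2 of each gene of the 9 lists of chaperones, regulators and partners that passed the filter, in RD and Rh30. Filled points have a limma adjusted p under 0.05 and black lines are medians. The TRiC subunits have their median at -0.30 in RD and -0.12 in Rh30, while FLNC (-0.86) is the lowest point in Rh30.

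For each of the 10 genes, the gene with the most similar pattern over the 12 libraries was sought among the 11017 genes that averaged 10 FPKM or more, by Pearson's r of log2(FPKM + 1). For HSPA8 it was CCT5 (r = 0.990), a TRiC subunit described above, and for HSP90AA1 it was TTK (r = 0.992), a kinase of the spindle checkpoint. BAG3 was closest to PTPA (r = 0.999), HSPB8 to TM9SF4 (r = 0.998), HSPH1 to RPL14 (r = 0.996), DNAJB1 to PIAS1 (r = 0.994) and CRYAB to FOXN3 (r = 0.988). HSP90AB1 was closest to DHX9 (r = 0.954), HSPA4 to KTN1 (r = 0.936) and HSPB1 to TCF25 (r = 0.823). The 12 libraries fall into 4 groups that share line, shRNA and relative depth, so each r describes mostly 4 group levels, and it is the highest of a search over many genes.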

How the data were processed

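The authors aligned reads of directional mRNA libraries to GRCh38 with GSNAP, used SAMtools, and deposited FPKM per gene from Cufflinks for 12 libraries, without a log. The methods give a read length of 50 bases on a single end and the labels a longer one. Annotation release and strand setting were not given in the sources used here. Of 66095 entries, 120 repeats of an identifier were left out, and in 17 genes a placeholder value was treated as missing. Groups were compared with limma 3.58.1 (R 4.3.3, lmFit and eBayes with a trend, two-sided) on log2(FPKM + 1), a pseudocount of 1, for genes averaging 1 FPKM or more, with Benjamini-Hochberg adjustment over all genes. The methods name an analysis of variance, run here as the fits with no shared spread. Of these steps, only the limma fits were tested on simulated data. Members and lists were chosen with earlier results of these data known. The text names all members, KDM3A, HSF1, HSF2, HSPA1A and HSPA1B. Per list, it also names the called genes with the largest changes and a mean of at least 10 FPKM. HSF4 was below that mean and is named for its calls. Closest genes and the highest pseudogenes were named by their rank, and HSP90AB2P and HSPA8P7 for their calls in Rh30. Python 3.11.15, pandas 2.3.3 and matplotlib 3.10.9 were used. Items that the lists first held are in part not reported here.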

Additional observations from a re-analysis of the deposited data

Results flagged for a closer look

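The difference between the lines in the effect of KDM3A-sh2 (the Rh30 value minus the RD value on the log2 scale, tested as an interaction by limma) passed an adjusted p of 0.05 for 20 of the named genes. Over all 18517 genes tested, 27.8% passed. Most of the named genes outside the 10 were chosen for calls and large changes within a line in these same libraries. The 20 are therefore no measure of how often chaperone genes differ between the lines. Among the 10 heat shock genes the difference was -0.66 for HSPB8, 0.46 for HSPH1, 0.34 for HSP90AA1, 0.16 for HSP90AB1 and 0.14 for HSPA8. Among other HSP70 and HSP40 genes it was 0.63 for HSPA1B, 0.21 for HSPA14 and -0.61 for DNAJB4. Among co-chaperones it was 0.26 for FKBP4, 0.19 for STIP1 and 0.26 for ST13. For HSPB7 and HSPB11 the difference was 0.81 and 0.28, and for HSBP1 it was -0.25. It stood at 0.26 for CCT6A, 0.15 for CCT5 and 0.52 for HSPD1. The filamins had -0.61 (FLNC) and -0.24 (FLNA). The differences of FLNA, HSPB11, KDM3A, CCT6A, CCT5 and HSPA14 passed the test in the fewest settings, with the call lost in 15, 14, 13, 12, 9 and 9 of 20 alternatives. KDM3A differed by 0.37, since its drop was larger in RD, and the part of this in the other differences was not tested.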

How the results depend on the processing

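The calls of HSPB8, HSP90AA1, HSPA8 and HSP90AB1 in RD and of HSPH1 in Rh30 held under all 14 alternatives run (pseudocount, filters, scalings, no shared spread, replicate block, leaving out each library). Without 1 library, 1 to 2 of the 10 genes were upregulated in RD, and over all genes 1621 to 2127 were upregulated in Rh30, against 2719 with every library, the lowest without Rh30 KDM3A-sh2 replicate 1 and 1759 without replicate 2. In Rh30, 2 genes of the 10 were upregulated with no shared spread (log2 or unlogged) and 1 was downregulated after rescaling or median centring. After rescaling, 2 genes had a higher and 2 a lower change in Rh30, and 5 were lower in Rh30 Scramble. Same-numbered libraries did not deviate together (correlations of -0.07 to 0.05), so no pairing by number showed, though this cannot exclude that they were handled together. The replicate block gave 1798 upregulated genes in Rh30 and 3282 in RD and lost the HSP90AB1 difference (limma adjusted p = 0.0881). Small uncalled values changed sign. After rescaling, HSF2 in RD was at 0.0157, FLNA in RD at 0.000963, DNAJB4 in Rh30 at -0.0147 and HSPA4 between Scramble groups at -0.00891, and after median centring CRYAB in RD was at -0.000679 and DNAJB4 in Rh30 at -0.0158. Leaving out 1 library gave ranges across 0 in RD for HSPB7 (-0.0309 to 0.128), HSF2 (-0.0595 to 0.0259), FLNA (-0.0845 to 0.0349) and CRYAB (-0.0322 to 0.0569), in Rh30 for DNAJB4 (-0.0409 to 0.0549), HSBP1 (-0.00528 to 0.0640), HSPB1 (-0.00903 to 0.107) and CRYAB (-0.110 to 0.0142), and in the difference for HSPA4 (-0.0518 to 0.0462) and CRYAB (-0.120 to 0.00413). The causes were not tested. FPKM hide read counts, so no counting error can be given.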
